A study of Mus musculus with 12 samples.

Results

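miR-103-3p and miR-107-3p are a pair of closely related mature miRNAs that were read here across 12 small RNA libraries of mouse serum. They are 2 of the 874 mature miRNAs listed in the mouse count tables, picked by their miRBase accessions, MIMAT0000546 for miR-103-3p and MIMAT0000647 for miR-107-3p. No measured value entered that rule, but earlier results of these data were known when the members were chosen. The sera came from 3 female athymic NCr nude mice (mice 1046, 1047 and 1069), aged 4 to 6 weeks when the tumours were made, which lack a normal T cell compartment. Each mouse was bled before and again 2 weeks after 1000000 human SH-SY5Y cells, an established neuroblastoma line, had been placed under the renal capsule, so elapsed time and tumour cannot be told apart. Each of the 6 sera gave a library from RNA depleted of abundant 5′ tRNA fragments, captured with biotinylated DNA probes on streptavidin beads, and a library from undepleted RNA. The authors describe the undepleted RNA samples as the same ones, but how an extract of these mice was divided is not stated. The libraries formed 4 groups of 3, before and after injection, depleted and undepleted.

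miRNAs are short RNAs that guide Argonaute proteins to messenger RNAs, mainly through the seed, bases 2 to 8 counted from the 5′ end. miR-103 and miR-107 lie within introns of the pantothenate kinase genes, whose enzymes start coenzyme A synthesis, and they are known for their effect on insulin sensitivity in liver and fat and for targeting Dicer, the enzyme that cuts miRNA precursors. They are counted with the miR-15 and miR-16 miRNAs in a wider group that shares a stretch near the 5′ end. In serum, miRNAs are carried in vesicles and in complexes with protein, and a count cannot tell fewer releasing cells from less release per cell.

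The mature sequences are shown because both members differ so little that a read can fail to tell them apart. All sequences are from RefSeq on GRCm38.p6, written 5′ to 3′, and here the capitals mark the seed.
mmu-miR-103-3p: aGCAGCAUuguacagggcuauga
mmu-miR-107-3p: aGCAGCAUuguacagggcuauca
Both are 23 bases long and share their first 21 bases. The only difference, counted from 1 at the 5′ end and going from miR-103-3p to miR-107-3p, is G22C. No other of the 1679 mature mouse entries had the same seed. A read of 21 bases or fewer from the 5′ end therefore matches both miRNAs without a mismatch, and how the authors counted reads with more than one match is not stated.

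The precursors show where such a read could come from, with the mature 3p strand in capitals.
Mir103-1: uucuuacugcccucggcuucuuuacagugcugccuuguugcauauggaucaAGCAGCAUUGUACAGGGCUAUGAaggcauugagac
Mir103-2: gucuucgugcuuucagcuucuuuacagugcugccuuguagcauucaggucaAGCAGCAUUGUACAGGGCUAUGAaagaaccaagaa
Mir107: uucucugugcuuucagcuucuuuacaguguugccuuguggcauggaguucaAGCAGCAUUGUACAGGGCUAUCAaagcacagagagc
These 3 were the only ones of 1005 hairpins that held the shared run of 21 bases. Mir103-1 lies at chr11:35782396-35782481 on the plus strand, inside Pank3, and Mir103-2 at chr2:131288052-131288137 on the plus strand, inside Pank2. Mir107 lies at chr19:34820687-34820773 on the minus strand, inside Pank1. In GENCODE M21, on the same build, each hairpin was intronic, on the strand of its host gene, and overlapped none of its exons. Reads of miR-103-3p do not tell Mir103-1 from Mir103-2, since the mature strand is identical. Over the whole hairpin, the mature strand included, a global alignment had 80.2% identical positions between Mir103-1 and Mir103-2, 80.5% between Mir103-1 and Mir107 and 83.9% between Mir103-2 and Mir107.

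The 7 miRNAs taken here from the wider group are shown for the offset of the stretch shared by all of them, which is in capitals. These 7 are a set list. Of the 1679 mature mouse entries, 13 held these 6 bases within their first 8, miR-103-3p and miR-107-3p included.
mmu-miR-15a-5p: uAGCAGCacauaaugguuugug
mmu-miR-15b-5p: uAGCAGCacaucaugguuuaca
mmu-miR-16-5p: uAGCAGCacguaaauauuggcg
mmu-miR-195a-5p: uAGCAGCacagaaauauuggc
mmu-miR-322-5p: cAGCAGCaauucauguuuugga
mmu-miR-497a-5p: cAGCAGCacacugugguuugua
mmu-miR-503-5p: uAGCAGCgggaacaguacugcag
The 6 bases shared by all 7 run from position 2 to 7, whereas in miR-103-3p and miR-107-3p the same bases are the first 6. Laid over each other without a shift, the seeds therefore match at 0 of the 7 positions. In all of the 7 except miR-503-5p the next base, an A, is shared as well. The whole seed of those miRNAs, bases 2 to 8, is thus the same as the first 7 bases of miR-103-3p and miR-107-3p. Of this group, miR-16-5p (MIMAT0000527) is the only one whose accession is given in the sources used here, and it served as the comparator below. The marker lists for red cells, white cells, liver, endothelium and muscle could not be matched to accessions, apart from miR-16-5p on the red cell list, and were not analysed.

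miR-103-3p was found in every library, and miR-107-3p was all but absent. In depleted libraries before injection, miR-103-3p had 924 counts in mouse 1046, 1480 in mouse 1047 and 726 in mouse 1069. After injection the depleted libraries held 1260, 1595 and 1336 counts in the same mice. Undepleted libraries gave far fewer, with 35, 51 and 11 counts before injection and 31, 22 and 12 after it. The depleted libraries held 938706 to 2271549 mouse miRNA counts in all and the undepleted ones 21235 to 97183, so raw counts of the arms cannot be set against each other.

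Scaled to 1000000 mouse miRNA counts in each library (CPM), miR-103-3p stood at 685 (95% Wilson interval 643 to 731), 813 (772 to 855) and 773 (719 to 832) in the depleted libraries before injection, in the order of mice 1046, 1047 and 1069. After injection the depleted libraries gave 707 (669 to 748), 916 (872 to 962) and 588 (557 to 621). These 2 groups overlapped, and mouse 1047 was the highest in both.

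The undepleted libraries before injection gave 360 (259 to 501), 567 (431 to 745) and 518 (289 to 927) CPM. After injection they gave 455 (321 to 646), 423 (280 to 641) and 243 (139 to 424). Every undepleted library lay under every depleted one, and the undepleted libraries, being shallower, had the wider intervals. The intervals cover counting error only, since reads copied by PCR are not independent molecules. miR-103-3p ranked 68th to 86th in depleted libraries, which listed 546 to 614 mouse miRNAs each. In undepleted libraries, which listed 225 to 305, it ranked 80th to 98th.

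**Figure D1:**
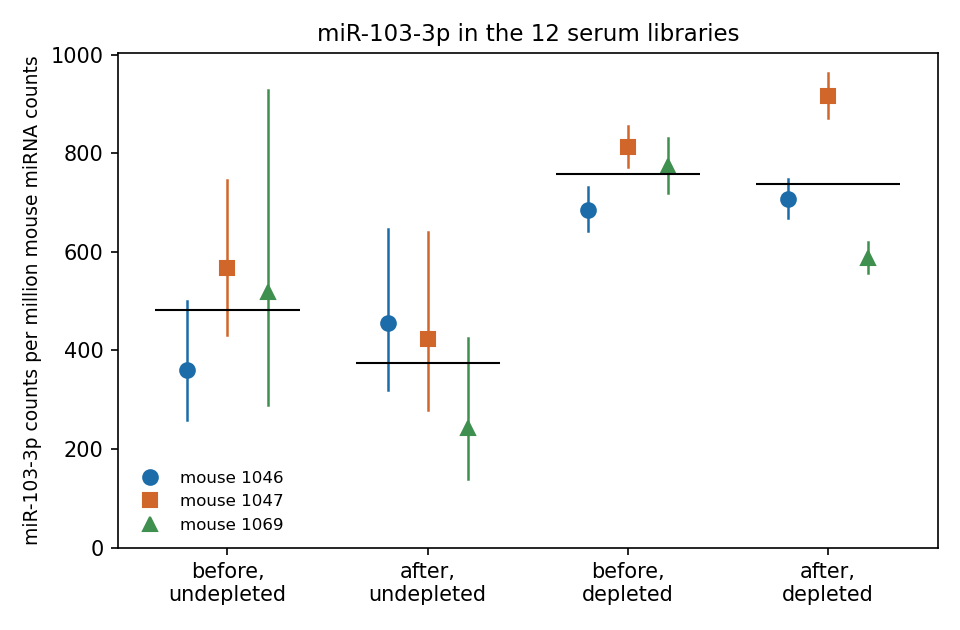
miR-103-3p CPM (vertical axis) in the 4 groups of 3 libraries; each symbol is a library of the mouse named, vertical lines are 95% Wilson intervals and horizontal lines group means. The 6 depleted libraries sit between 588 and 916, all above the 6 undepleted ones, which sit between 243 and 567.

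Ordered by mean, the level was lowest after injection without depletion, at 374 ± 115 CPM, followed by 482 ± 108 before injection without depletion, 737 ± 166 after injection with depletion and 757 ± 65.3 before injection with depletion (SD, n = 3 each). Within an arm, the exact two-sided permutation test of before against after gave p = 0.4 in undepleted and p = 1.0 in depleted libraries. With 3 against 3 libraries this test cannot go below 0.1, so it does not show that the levels were the same. The step between the arms was the widest gap in this order.

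To see how depletion bears on miR-103-3p, both libraries of each serum were compared. miR-103-3p took a larger part of the miRNA counts in the depleted library of 6 of 6 sera. The ratio of CPM, depleted over undepleted, was 1.90, 1.43 and 1.49 before injection in mice 1046, 1047 and 1069, and 1.55, 2.16 and 2.42 after it. The geometric mean was 1.79 (log2 ratio 0.84 ± 0.31, SD, n = 6 sera), and a two-sided exact permutation test that flips the signs of the sera gave p = 0.03125, as low as 6 sera allow. These 6 sera come from 3 mice, and without one mouse at a time the geometric mean ranged from 1.74 to 1.83. In raw counts, the depleted library held 26.4 to 111 times the miR-103-3p counts of its undepleted partner, against 13.9 to 45.9 times the counts of all mouse miRNAs.

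The fit across all 12 libraries, with time point as a covariate, gave the same direction. The log2 fold change was 0.67 with a standard error of 0.20 and a Benjamini-Hochberg adjusted p of 0.00941 in DESeq2. This lay below a 2-fold change, so miR-103-3p was higher by the adjusted p-value but not among the called miRNAs. By both criteria 32 of 383 tested mouse miRNAs were called, 8.36%, and by the adjusted p-value alone 55, or 14.4%. The median log2 fold change over the 383 was -0.04, and 65 of them, 17.0%, had a higher value than miR-103-3p. Without the prior that pulls fold changes towards 0, the 95% interval of the log2 fold change was 0.27 to 1.08.

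The scaling of the libraries moved all miRNAs together here. With TMM factors the median over the tested miRNAs rose by 0.24 on the log2 scale, and with total mouse counts by 0.12. miR-103-3p moved with it, to log2 fold changes of 0.93 (DESeq2 adjusted p = 0.000122) and 0.80 (0.000493), so that its distance to the median was 0.71, 0.72 and 0.73 with the median-of-ratios, TMM and total-count scalings. The called miRNAs were 19 higher and 13 lower with the median of ratios, 32 and 10 with TMM factors, and 34 and 10 with edgeR. Leaving out mouse 1046 kept the log2 fold change at 0.67 but raised its standard error to 0.31 and the DESeq2 adjusted p to 0.530. The unadjusted p was 0.0312 in that DESeq2 fit, and the adjustment ran over 798 miRNAs instead of 383. The pass by adjusted p was thus lost without that mouse, in a fit that does not pair the libraries of a serum. Within sera, the geometric mean ratio of CPM without mouse 1046 was 1.83.

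The same step was looked at before and after injection separately. Before injection the geometric mean ratio of CPM was 1.60 and after injection 2.01 (log2 ratios 0.68 ± 0.22 and 1.01 ± 0.33, SD, n = 3 sera each, exact permutation test, p = 0.2). In sera taken before injection alone the log2 fold change was 0.60 (DESeq2 adjusted p = 0.567), and in sera taken after it 0.79 (0.0457). The interaction of time point and depletion, which tests this difference, was 0.23 on the log2 scale (standard error 0.43, 95% interval -0.61 to 1.07, DESeq2 adjusted p = 0.998). No miRNA of the 874 tested, 0%, had an interaction with an adjusted p under 0.05. At an unadjusted p under 0.05 there were 3 in DESeq2 and 11 in edgeR, which also called 0. These fits do not pair the libraries of a serum. DESeq2 with the serum as a block had 8 at an unadjusted p under 0.05 and again called 0. With 3 sera per time point, the absence of calls does not show that there is no interaction.

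miR-16-5p, a member of the wider group that red cells hold in large amounts, went the other way upon depletion on the CPM scale. Its CPM in the depleted library were 0.704 to 0.788 times those in the undepleted one, lower in 6 of 6 sera (p = 0.03125 in the same exact test). In DESeq2 the log2 fold change of miR-16-5p was -0.56 ± 0.16 (standard error), with an adjusted p of 0.00525. The value stayed below 0 with TMM factors (-0.29) and total counts (-0.44), but the DESeq2 adjusted p was 0.380 with TMM factors, and edgeR gave 0.543. Without mouse 1046 the DESeq2 adjusted p was 0.443, without mouse 1047 it was 0.349, and in sera before injection alone 0.643. In these fits, which do not pair the libraries of a serum, the pass rested on the scaling and on these mice. Once each serum formed its own block, DESeq2 put miR-16-5p at -0.56 ± 0.04 (standard error), and the adjusted p fell to 3.9e-43. This block was run with the median of ratios only. Within sera, the geometric mean ratio of miR-16-5p CPM was 0.739 without mouse 1046 and 0.750 without mouse 1047. The ratio of miR-103-3p to miR-16-5p needs no scaling of libraries, because both counts come from the same one. It was 1.99 to 3.08 times higher in the depleted library, in 6 of 6 sera, with a geometric mean of 2.43 (log2 difference 1.28 ± 0.29, SD, n = 6) and p = 0.03125 in the exact sign-flip test. This comparison, like that of CPM within a serum, was added after the data had been seen.

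Next, sera after injection were compared with sera before injection. In depleted libraries the normalised counts of miR-103-3p were 1236, 1629 and 1158 before and 1011, 1320 and 880 after injection in mice 1046, 1047 and 1069. They were lower in 3 of 3 mice, and the groups overlapped, with means of 1341 ± 253 and 1070 ± 226 (SD, n = 3 each). In DESeq2 the log2 fold change of -0.30 had a standard error of 0.26 and an adjusted p of 0.441, which did not pass the threshold, and its 95% interval without the prior was -0.88 to 0.23. A fall of more than 2-fold lies outside this interval, which rests on 3 libraries per group. Without mouse 1046 the log2 fold change was again -0.30, but its standard error rose to 0.38, so this bound depends on the mice kept. Of the 310 tested mouse miRNAs, 33 were called, 10.6%, and miR-103-3p was not among them. The median log2 fold change over all tested was -0.09, and 206 of the 310 had a larger change in either direction.

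This small difference depended on the scaling for its size. On the CPM scale, mice 1046 and 1047 had the higher value after injection and mouse 1069 the lower one. With total counts as size factors the log2 fold change was -0.04 (DESeq2 adjusted p = 0.935). That scaling raised the median of all tested miRNAs by 0.23 and turned the calls from 15 higher and 18 lower into 32 higher and 5 lower. The distance of miR-103-3p to that median was -0.21 with the median of ratios and -0.18 with total counts.

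In undepleted libraries the normalised counts were 21.8, 36.6 and 25.4 before and 24.4, 22.8 and 13.1 after injection. Mouse 1046 had the higher value after injection and the other two mice the lower one, and the groups overlapped. The log2 fold change of -0.39 had a standard error of 0.40 and an adjusted p of 0.584 in DESeq2, with a 95% interval of -1.44 to 0.49 without the prior. At 11 to 51 counts per library, a 2-fold fall could not be told from no change. Of 108 tested miRNAs 12 were called, 11.1%, without miR-103-3p.

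**Figure D2:**
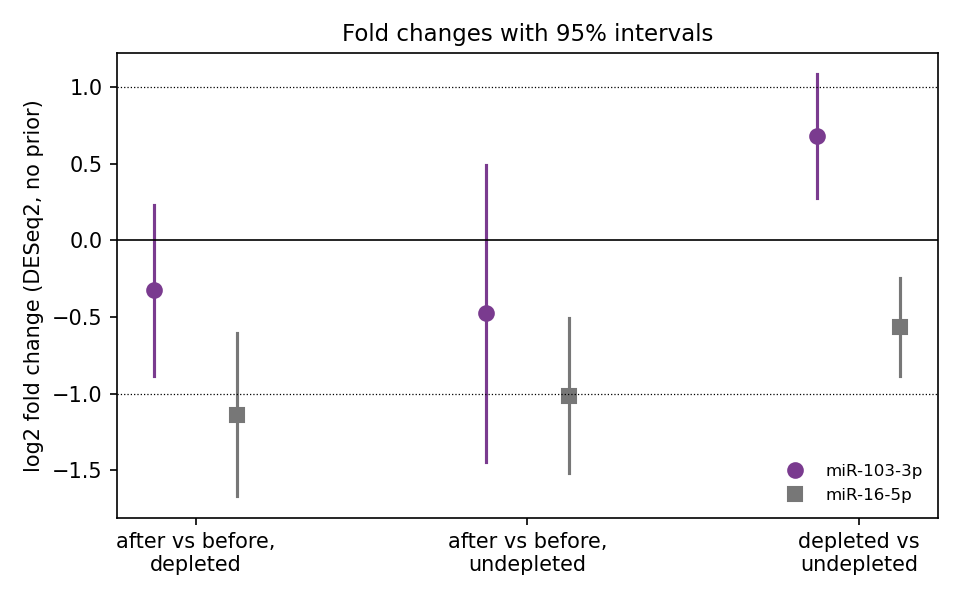
log2 fold changes without the prior (vertical axis) of miR-103-3p (circles) and miR-16-5p (squares) in 3 comparisons, with 95% intervals as vertical lines and the 2-fold cut-off dotted. The interval of miR-103-3p spans 0 in both comparisons of time points and lies above 0, from 0.27 to 1.08, for depletion.

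miR-16-5p was lower after injection, with a log2 fold change of -1.07 ± 0.25 (standard error) in depleted libraries, where DESeq2 gave an adjusted p of 0.000882. The call was lost without mouse 1047 (-0.87, DESeq2 adjusted p = 0.119) and, by the fold cut-off, with total counts as size factors (-0.81, 0.00517). In undepleted libraries it was -0.95 ± 0.24, just short of 2-fold, with an adjusted p of 0.000907 in DESeq2. There edgeR gave an adjusted p of 0.0590, and DESeq2 gave 0.142 without mouse 1046 and 0.960 without mouse 1047. In these DESeq2 fits the adjustment ran over 201 and 395 miRNAs instead of 108. miR-16-5p was called without the prior (-1.01, DESeq2 adjusted p = 0.000629) and without mouse 1069 (-1.04, 8.9e-10). Free haemoglobin of the sera was not used here, and the part of red cell RNA in what follows was not tested. The difference between both miRNAs was tested directly, on their ratio within each library, which needs no scaling. In depleted libraries before injection, miR-16-5p had 184, 154 and 140 counts for each count of miR-103-3p in mice 1046, 1047 and 1069. After injection it had 109, 73.4 and 95.6. The groups did not overlap, and the ratio moved the same way in 3 of 3 mice. The log2 ratio of miR-103-3p to miR-16-5p was -7.31 ± 0.20 before and -6.52 ± 0.29 after injection (SD, n = 3 each), a difference of 0.79. The exact permutation test gave p = 0.1, below which 3 against 3 libraries cannot go.

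In undepleted libraries there were 485, 314 and 279 counts of miR-16-5p for each of miR-103-3p before injection, and 228, 221 and 294 after it. Here the groups overlapped, as mouse 1069 went the other way on 11 and 12 counts of miR-103-3p. The log2 ratio differed by 0.51, from -8.45 ± 0.42 to -7.94 ± 0.23 (SD, n = 3 each, exact permutation test, p = 0.2). Without mouse 1046 the difference was 0.22. The depleted and undepleted values come from shared sera and are not independent of each other.

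**Figure D3:**
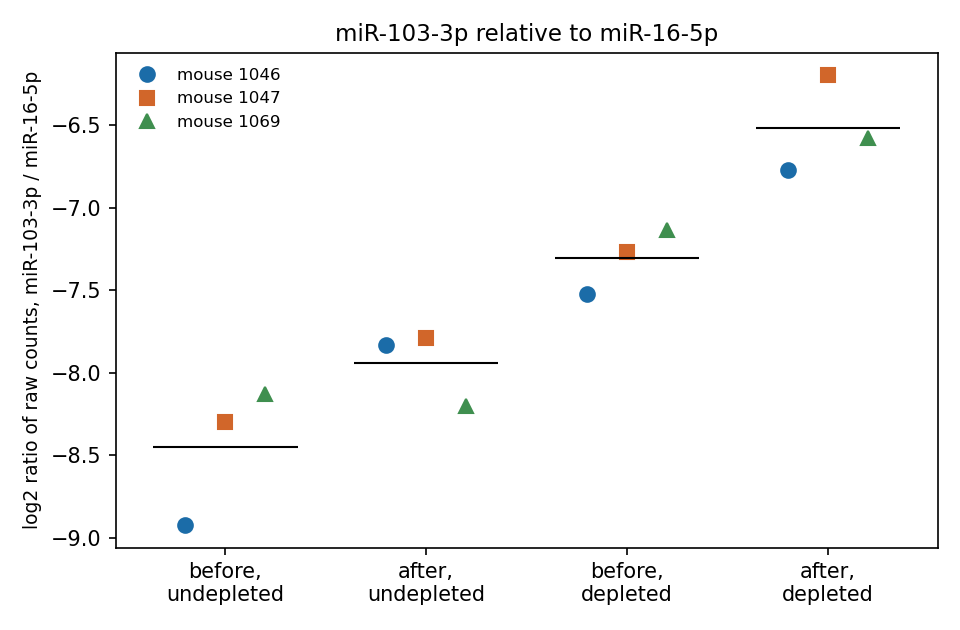
log2 ratio of raw counts of miR-103-3p to miR-16-5p (vertical axis) in the 4 groups; symbols are libraries of the mouse named and horizontal lines group means. Group means run from -8.45 before injection without depletion to -6.52 after injection with depletion, and only the depleted groups separate by time point.

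miR-107-3p was assigned reads in depleted libraries alone. It had 3, 6 and 4 counts before and 3, 3 and 2 counts after injection in mice 1046, 1047 and 1069, and 0 counts in all 6 undepleted libraries. In CPM this came to 3.26 ± 1.02 before injection (SD, n = 3) and 1.43 ± 0.48 after it, lower in 3 of 3 mice, with p = 0.1 in the exact permutation test, again its lowest possible value. DESeq2 gave it no adjusted p-value in depleted libraries, because its mean was under the independent filter, and edgeR, which does not apply that filter, gave 0.656. In undepleted libraries 3 counts, the limit that a count of 0 allows, would have been 30.9 to 141 CPM, above any level of miR-107-3p in a depleted library. A level like that of the depleted libraries was thus not detectable at the undepleted depth, and no fold change upon depletion is given.

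The split of reads between the members was read as the share of miR-107-3p in the counts of both. Before injection it was 0.324% (95% Wilson interval 0.110 to 0.947), 0.404% (0.185 to 0.878) and 0.548% (0.213 to 1.40) in mice 1046, 1047 and 1069. After injection it was 0.238% (0.0808 to 0.696), 0.188% (0.0639 to 0.551) and 0.149% (0.0410 to 0.543). The share was lower in 3 of 3 mice and the groups did not overlap, but the intervals of single libraries did. The means were 0.425% ± 0.114 and 0.192% ± 0.044 (SD, n = 3 each, difference -0.23 percentage points, exact permutation test, p = 0.1), and without mouse 1069 the difference was -0.15. Summed over the 6 depleted libraries, 21 of 7342 counts were miR-107-3p, 0.286% (0.187 to 0.437). In undepleted libraries it was 0 of 162, with an upper Wilson bound of 2.32%, and 3 counts, the limit used for a count of 0, would be 1.85%. Given that the members share 21 of 23 bases, this share describes reads as they were assigned. With no mismatch allowed, the G22C difference decides the assignment of a full-length read. Reads of miR-103-3p miscalled at that base were not looked for, so the counts of miR-107-3p may hold some.

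**Figure D4:**
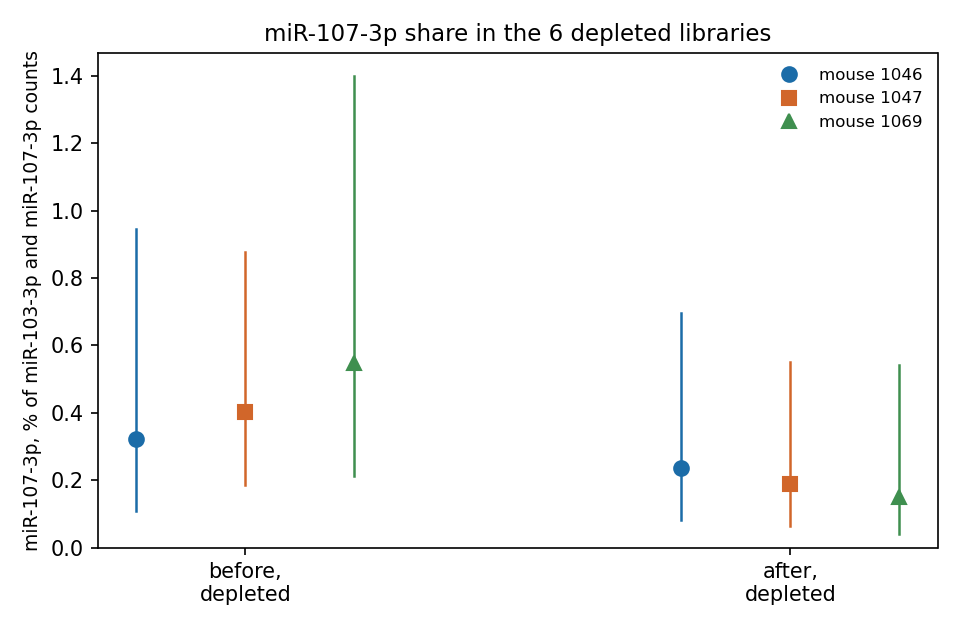
miR-107-3p as a percentage of miR-103-3p and miR-107-3p counts (vertical axis) in the 6 depleted libraries, by time point; symbols are libraries of the mouse named and lines 95% Wilson intervals. The shares run from 0.324% to 0.548% before and from 0.149% to 0.238% after injection, on 2 to 6 counts of miR-107-3p each.

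The human tables, made from the same reads on the human genome, held both members again. MIMAT0000101, taken as hsa-miR-103a-3p, had the same counts as mouse miR-103-3p in 12 of 12 libraries, and MIMAT0000104, taken as hsa-miR-107, the same as mouse miR-107-3p in 12 of 12. No other mouse entry matched either one. The counts of these miRNAs thus cannot tell reads of the mouse from reads of the human tumour cells, and sera without tumour cells held them too.

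Finally, the miRNAs whose pattern was most like that of miR-103-3p were looked up, by Pearson's r of log2(normalised count + 1) over the 6 depleted libraries, among 212 others with a mean of at least 50. The highest were MIMAT0000121 (r = 0.891), MIMAT0000534 (0.877), MIMAT0004869 (0.867), MIMAT0000666 (0.860) and MIMAT0014944 (0.843), which the files do not pair with names. Over the 6 undepleted libraries the same miRNAs had r of 0.703, 0.790, 0.694, 0.299 and 0.800. miR-16-5p came 25th with 0.721, and had an r of 0.752 over the undepleted libraries. These values are a description over 6 libraries from 3 mice, normalised together, and the depleted and undepleted values come from the same sera.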

How the data were processed

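Serum small RNA libraries (TruSeq, from 50 μl of serum) were analysed from the deposited tables, which hold raw read counts per mature miRNA, 1 mouse and 1 human table per library. The authors trimmed adaptors with cutadapt 1.8.1, filtered on quality, mapped with Bowtie 1.1.2 without mismatches and assigned reads by miRBase coordinates on GRCm38/mm10 or GRCh37/hg19. Zero mismatches make the count of a miRNA depend on its last bases. Missing entries were taken as 0.

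All mouse miRNAs with at least 1 count were fitted in DESeq2 1.42.0 (R 4.3.3; Wald test, zero-centred prior, median-of-ratios factors, independent filtering), the study's tool; the interaction had no prior. Called miRNAs had a Benjamini-Hochberg adjusted p under 0.05 and a 2-fold change. The script was tested on simulated data. Exact permutation tests between groups and 95% Wilson intervals used SciPy 1.17.1. Exact sign-flip tests went through all sign patterns with NumPy 2.4.6. Alternatives were edgeR 4.0.16, TMM and total-count scaling, a filter of 4 counts in 3 libraries, no prior, no fold cut-off, blocks and leaving out each mouse. Before and after sera come from the same mouse and depleted and undepleted libraries from the same serum. Deviations from group means correlated with r of 0.642 to 0.912 between libraries of a serum, and -0.415 to 0.101 between sera of a mouse.

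Members, lists and tests were chosen with earlier results of these data known. Named miRNAs were both members, their other strands, the 7 of the wider group, the marker lists, the human entries and the 5 most alike. RefSeq names carry no miRBase accessions, so the other strands, the lists and the ratio of miR-103-3p to the red cell list were not analysed.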

Additional observations from a re-analysis of the deposited data

How the results depend on the processing

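Direction held for miR-103-3p in each comparison and alternative run. Its depletion effect missed the adjusted p threshold in sera before injection only (log2 fold change 0.60) and without mouse 1046; without one mouse at a time it ranged from 0.64 to 0.71. With the serum as a replicate block it was 0.69 (DESeq2 adjusted p = 0.000113), and the block by serum or mouse changed no call of a named miRNA. With it 26, 11, 27 and 0 miRNAs were called for time points in depleted and undepleted libraries, depletion and the interaction, against 33, 12, 32 and 0. Counts of called miRNAs moved over 1.5-fold without the fold cut-off (52 and 21 for time points in depleted and undepleted libraries, 55 for depletion) and in sera before injection only (17 for depletion). Without one mouse at a time these counts ranged from 11 to 32, 1 to 11 and 19 to 33, lowest without mice 1047, 1047 and 1046; for time points they were 19 and 7 without mouse 1069. The cause was not tested. The ratio to miR-16-5p ranged from 0.65 to 0.91 (depleted, after minus before, log2) and 0.22 to 0.80 (undepleted), and paired within mice as a replicate block gave p = 0.25 and 0.5 (exact sign-flip permutation test; 3 pairs cannot go below 0.25). For the miR-107-3p share the block gave p = 0.25 in the same exact test. With the filter on low counts or without the prior, DESeq2 gave miR-103-3p no adjusted p in undepleted libraries. The sum of miR-15a-5p, miR-15b-5p and miR-16-5p and the red cell list could not be run as denominators, having no accessions. Depth limits the undepleted arm, at 11 to 51 counts of miR-103-3p, and miR-107-3p throughout.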
